A study of Arabidopsis thaliana with 12 samples.

Results

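*UPL3* (AT4G38600), *UPL5* (AT4G12570) and AT5G22920 encode *A. thaliana* proteins of the ubiquitin ligase type and are 3 of the 290 entries in Dataset S1, the study's list of sugar-responsive genes. They were taken because that list carries them, and the list was built on the sugar against Xyl contrasts of these same arrays, so their levels against Xyl are described here without a test. Each was represented by 1 probe set of the 22746 tested. The platform annotation named none of the 3 probe sets, so each was found as the probe set whose ratios of log2 sugar to log2 Xyl values equalled the gene's 3 listed ratios within 1e-05. The largest difference at the match was between 4.3e-07 and 4.7e-07, and the next best probe set differed by 0.00556 for *UPL3*, 0.00225 for *UPL5* and 0.00933 for AT5G22920. *UPL3* and *UPL5* lie on chromosome 4 and AT5G22920 on chromosome 5.

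The 12 single-colour ATH1 arrays came from a dark-grown, hormone-free cell suspension that had grown for 7 d on 87 mM Xyl as its sole carbon source. Cells then received 1 mM Fru, Glc, Suc or Xyl for 1 h, with Xyl as the control and 3 arrays per sugar, which the methods call biological replicates. Since the control cells also received 1 mM Xyl, each comparison is between sugars at equal molarity and not with sugar-free cells. All 12 arrays are of 1 habituated culture line. None of the 3 photosynthesis genes chosen to check the culture had a named probe set. Values are log2 RMA values, that is, probe-set signals after background correction and quantile normalization, so a difference of 1 is a doubling of signal. In bulk RNA, fewer cells expressing a gene and less RNA per cell cannot be told apart.

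Ubiquitin is attached to proteins by a relay of an activating enzyme (E1), a conjugating enzyme (E2) and a ligase (E3), and the ligase chooses the protein that is tagged, often for destruction by the proteasome. HECT ligases take ubiquitin onto a cysteine of their own before passing it on, while RING ligases bring the loaded E2 to the target. *UPL3*, also called *KAKTUS*, is a HECT ligase known for restraining endoreduplication and branching of trichomes. *UPL5* is a HECT ligase known for directing the degradation of the senescence regulator WRKY53. AT5G22920 encodes a protein with CHY-type, CTCHY-type and RING-type zinc fingers, listed by RefSeq as RING zinc-finger protein 34.

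*UPL3* was lowest with Suc and Glc and highest with Fru and Xyl. With Fru, *UPL3* had log2 values of 7.94, 7.92 and 8.12 in replicates 1, 2 and 3. With Glc it had 7.71, 7.80 and 7.52, and with Suc 7.45, 7.90 and 7.51. The control arrays with Xyl had 8.12, 8.25 and 8.05. Every Glc and Suc array lay below every Xyl array, whereas the Fru arrays overlapped with those of Xyl. Replicate 2 with Suc, at 7.90, was the highest of the 6 arrays with Glc or Suc. Means were 7.99 ± 0.11 with Fru, 7.68 ± 0.14 with Glc, 7.62 ± 0.25 with Suc and 8.14 ± 0.10 with Xyl (SD, n = 3 each).

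Fitted over all arrays, *UPL3* differed in log2 value from Xyl by −0.15 for Fru, −0.46 for Glc and −0.52 for Suc (standard error 0.14). In fold terms the signal was 1.38-fold lower with Glc than with Xyl and 1.44-fold lower with Suc than with Xyl. Within replicates 1, 2 and 3, Glc minus Xyl was −0.41, −0.45 and −0.53 and Suc minus Xyl was −0.68, −0.35 and −0.54. Fru minus Xyl was −0.18, −0.33 and 0.06, so the sign differed in replicate 3. Ordered from the lowest among 22746 probe sets, the difference of *UPL3* ranked 200 with Glc, 162 with Suc and 3986 with Fru.

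Dataset S1 places *UPL3* in the sub-group of Suc and Glc, which leaves the difference between these 2 sugars open to a test. Suc minus Glc was −0.06 (95% confidence interval −0.37 to 0.25; limma adjusted p = 1) and did not pass the unadjusted threshold of 0.002. Within replicates 1, 2 and 3 it was −0.26, 0.10 and −0.01, so the direction varied between replicates. In this fit, which left out the replicate number, 0.0572% of all probe sets passed that threshold between Suc and Glc. Equal levels are not shown by this, since a value 0.37 lower with Suc lies at the edge of the interval. Against Fru, which the sub-group sets apart, *UPL3* differed by −0.37 with Suc and by −0.31 with Glc, and the arrays did not overlap in either pair. Non-overlap downwards was found for 3.44% of all probe sets between Suc and Fru and for 2.51% between Glc and Fru. In replicate 2 the Suc and Fru arrays were only 0.02 apart, at 7.90 with Suc and 7.92 with Fru.

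**Figure D1:**
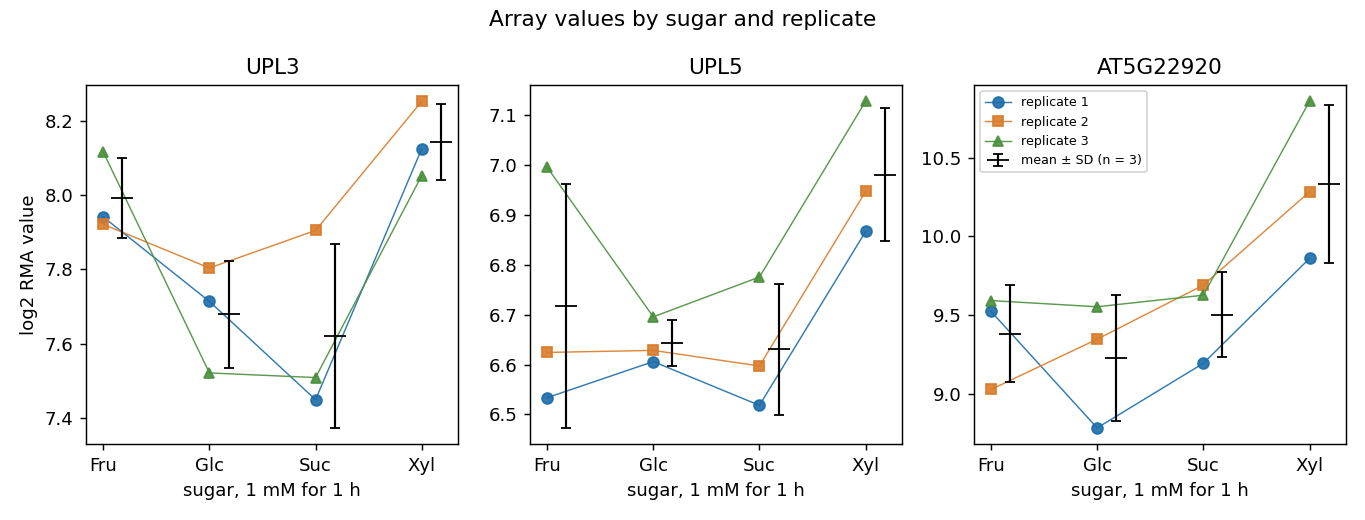
Log2 RMA values (y axis, a scale of its own in each panel) of *UPL3*, *UPL5* and AT5G22920 by sugar (x axis). Coloured points are arrays joined by replicate number, and black bars are means with SD (n = 3). For AT5G22920 all sugar arrays lie at or below 9.69 and all Xyl arrays at or above 9.86, whereas the Fru arrays of *UPL3* and *UPL5* overlap with Xyl.

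*UPL5* was lower with each sugar than with Xyl by a narrow margin, and the Suc, Glc and Fru levels lay close together. With Fru, *UPL5* had log2 values of 6.53, 6.62 and 7.00 in replicates 1, 2 and 3. With Glc it had 6.61, 6.63 and 6.70, and with Suc 6.52, 6.60 and 6.78. With Xyl it had 6.87, 6.95 and 7.13. Replicate 3 with Fru, at 7.00, exceeded the Xyl arrays of replicates 1 and 2 and made the Fru and Xyl groups overlap. All Glc and Suc arrays lay below all Xyl arrays. Means were 6.72 ± 0.24 with Fru, 6.64 ± 0.05 with Glc, 6.63 ± 0.13 with Suc and 6.98 ± 0.13 with Xyl (SD, n = 3 each).

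Fitted over all arrays, *UPL5* was below Xyl with each sugar, by a log2 difference of −0.26 for Fru, −0.34 for Glc and −0.35 for Suc (standard error 0.13). The Suc difference was the same in every replicate to the second decimal, at −0.348, −0.350 and −0.352. Glc minus Xyl was −0.26, −0.32 and −0.43, and Fru minus Xyl was −0.33, −0.32 and −0.13. All 9 of these within-replicate differences of *UPL5* were below zero. Dataset S1 lists *UPL5* under Suc alone. Yet Suc minus Glc was −0.01, Suc minus Fru −0.09 and Glc minus Fru −0.07, each with overlapping arrays and each smaller than the larger SD of its groups. These differences are given as descriptions. The listed sub-group sets Suc apart from Glc and Fru, and Glc minus Fru was not tested.

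AT5G22920 showed the largest differences of the 3 genes, and it was lower with all 3 sugars. With Fru, AT5G22920 had log2 values of 9.52, 9.03 and 9.59 in replicates 1, 2 and 3. With Glc it had 8.78, 9.35 and 9.55, and with Suc 9.19, 9.69 and 9.63. With Xyl it had 9.86, 10.28 and 10.86. None of the 9 arrays with Fru, Glc or Suc reached the lowest Xyl array. Means were 9.38 ± 0.31 with Fru, 9.23 ± 0.40 with Glc, 9.50 ± 0.27 with Suc and 10.33 ± 0.50 with Xyl (SD, n = 3 each), and the Xyl arrays were the most spread.

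Signal of AT5G22920 was 1.94-fold lower with Fru, 2.15-fold lower with Glc and 1.78-fold lower with Suc than with Xyl. On the log2 scale the fitted differences were −0.95, −1.11 and −0.83 for Fru, Glc and Suc, with a standard error of 0.29. Among 22746 probe sets ordered from the lowest difference, AT5G22920 ranked 15 with Fru, 7 with Glc and 44 with Suc. Within replicates 1, 2 and 3, Fru minus Xyl was −0.34, −1.26 and −1.27. Glc minus Xyl was −1.08, −0.94 and −1.31, and Suc minus Xyl was −0.67, −0.59 and −1.23. Replicate 3, whose Xyl array had the highest value at 10.86, gave the largest drop with each sugar.

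The list puts AT5G22920 in the sub-group of all 3 sugars, so the differences between sugars could be tested for it. Suc minus Glc was 0.28 (95% confidence interval −0.37 to 0.92; limma adjusted p = 1), with 0.41, 0.34 and 0.07 in replicates 1, 2 and 3. Suc was thus above Glc in 3 of 3 replicates, and the difference did not pass the test, which left out the replicate number. With the replicate number in the fit Suc minus Glc did not pass either (limma adjusted p = 0.779). Suc minus Fru was 0.12 (−0.52 to 0.76; adjusted p = 1 in limma) and Glc minus Fru −0.15 (−0.79 to 0.49; adjusted p = 1 in limma). Suc minus Fru was −0.33, 0.66 and 0.03 and Glc minus Fru was −0.74, 0.32 and −0.04 in replicates 1, 2 and 3, so both changed sign between replicates. Passing the unadjusted threshold was rare in these pairs, at 0.0044% of probe sets between Suc and Fru and 0.022% between Glc and Fru. None of the 4 differences tested between sugars, 3 for AT5G22920 and 1 for *UPL3*, passed. No probe set on the arrays (0%) had an adjusted p under 0.05 in any of the 3 pairs of sugars in limma without the replicate number in the fit, with 337, 402 and 377 at an unadjusted p under 0.05 between Suc and Glc, Suc and Fru, and Glc and Fru.

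**Figure D2:**
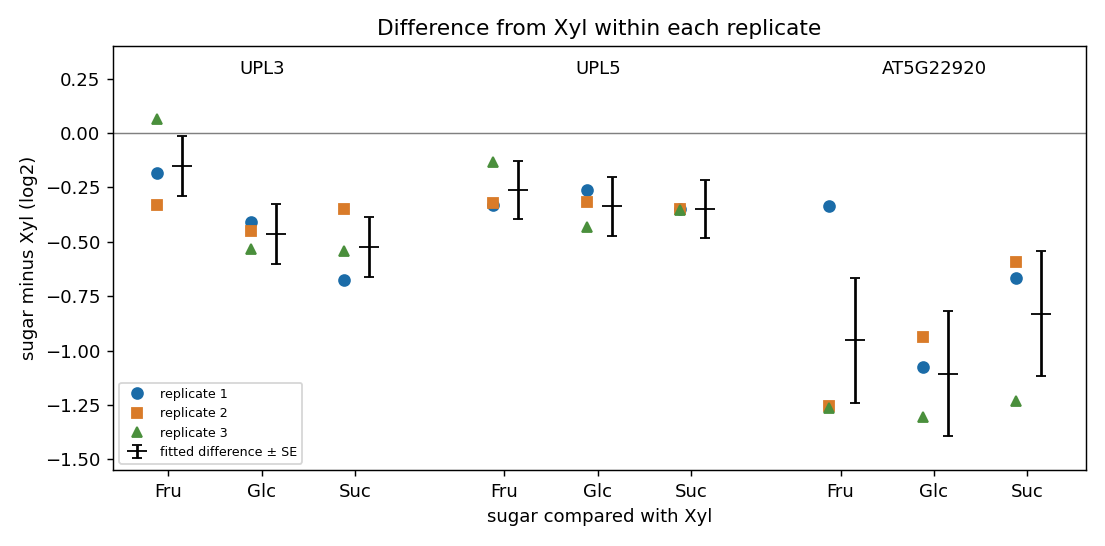
Sugar minus Xyl (y axis, log2) for *UPL3*, *UPL5* and AT5G22920 with Fru, Glc and Suc (x axis). Coloured points are the differences within replicates 1, 2 and 3, and black bars are the fitted difference ± standard error. The *UPL5* points with Suc coincide near −0.35, and the sole point above zero is *UPL3* with Fru in replicate 3, at 0.06.

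The 3 genes can be set side by side by the order of their sugars, though levels of different probe sets cannot be compared. *UPL3* and *UPL5* shared the order Suc, Glc, Fru, Xyl from low to high, and AT5G22920 had the order Glc, Fru, Suc, Xyl. For *UPL3* the step between Suc and Glc (0.06) was within the larger SD of the pair (0.25), and that between Glc and Fru (0.31) exceeded it (0.14). Its step between Fru and Xyl (0.15) exceeded the larger SD (0.11), although the arrays overlapped. For *UPL5* the step between Fru and Xyl (0.26) was about the size of the larger SD (0.24), and the lower steps were within it. For AT5G22920 only the step between Suc and Xyl (0.83) exceeded the larger SD (0.50). Counted by arrays that lay wholly below those of Xyl, 1 of the 3 genes did so with Fru, 3 of 3 with Glc and 3 of 3 with Suc, where 2.63%, 2.59% and 3.26% of all probe sets did so. These contrasts chose the genes, so nothing is read from the counts.

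Replicate number was compared as well, a contrast by which the genes had not been chosen. Over the 4 sugars, *UPL5* averaged 6.90 in replicate 3, against 6.63 in replicate 1 and 6.70 in replicate 2. AT5G22920 averaged 9.91 in replicate 3, against 9.34 in replicate 1 and 9.59 in replicate 2. For *UPL3* the means were 7.80 in replicate 3, 7.81 in replicate 1 and 7.97 in replicate 2. Replicate 3 was therefore the highest for *UPL5* and AT5G22920 but not for *UPL3*.

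Replicate 3 exceeded the mean of replicates 1 and 2 by 0.44 for AT5G22920 (standard error 0.14, limma adjusted p = 0.0151) and by 0.23 for *UPL5* (standard error 0.07, limma adjusted p = 0.0138). AT5G22920 was higher in replicate 3 with all 4 sugars, by 0.32 with Fru, 0.49 with Glc, 0.18 with Suc and 0.79 with Xyl. *UPL5* was likewise higher with all 4 sugars, by 0.42, 0.08, 0.22 and 0.22 with Fru, Glc, Suc and Xyl. *UPL3* differed by −0.09 (standard error 0.09, limma adjusted p = 0.44). Such differences were common on these arrays, as 47.9% of all probe sets had an adjusted p under 0.05 in this comparison and 35.9% an unadjusted p under 0.002, with a median absolute difference of 0.207. None of the 3 genes passed the unadjusted threshold of 0.002. The adjusted p was 0.0709 for *UPL5* without replicate 3 of Fru and 0.0963 for AT5G22920 without replicate 3 of Xyl. Each number has 1 array per sugar, and these p-values measure the spread between those arrays only.

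Because replicate 3 differed from replicates 1 and 2 for so many probe sets, the differences from Xyl were also taken over replicates 1 and 2 alone. Replicates 1 and 2 were not each set against the others in the same way. AT5G22920 then differed by −0.80 with Fru, −1.01 with Glc and −0.63 with Suc. *UPL3* differed by −0.26, −0.43 and −0.51 and *UPL5* by −0.33, −0.29 and −0.35 with Fru, Glc and Suc. All 9 differences kept their direction, and for *UPL3* with Fru the value was over 1.5 times that of all 3 replicates. These contrasts chose the genes, so nothing is read from the kept direction.

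Split into shares, 73.0% of the sum of squares of *UPL3* over the 12 arrays lay between sugars, 9.68% between replicate numbers and 17.3% in the remainder. The shares of *UPL5* were 55.1%, 35.7% and 9.24%, and those of AT5G22920 were 65.6%, 19.3% and 15.2%. Over all probe sets the median shares were 14.2% between sugars and 54.0% between replicate numbers. The high sugar shares of the 3 genes follow in part from their choice and are given as a description. *UPL5* was the gene of the 3 with the highest share between replicates.

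**Figure D3:**
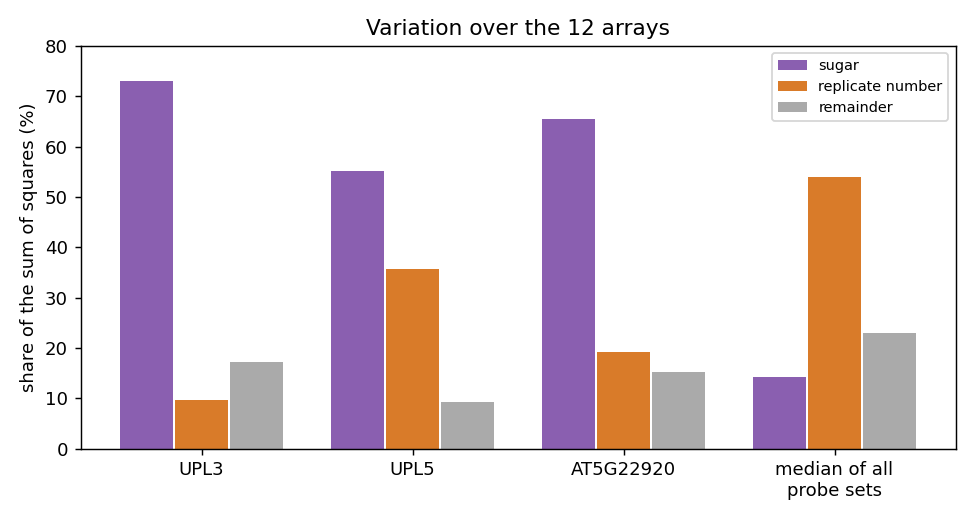
Share of the sum of squares over the 12 arrays (y axis, %) between sugars, between replicate numbers and in the remainder, for *UPL3*, *UPL5*, AT5G22920 and, as 3 separate medians, all 22746 probe sets (x axis). The sugar share is highest for *UPL3* at 73.0%, and the replicate share is 35.7% for *UPL5*, against a median of 54.0% over all probe sets.

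Over the 12 arrays, with each replicate's mean subtracted, *UPL3* and *UPL5* correlated at r = 0.86, *UPL5* and AT5G22920 at 0.75 and *UPL3* and AT5G22920 at 0.64. On the values as deposited the same pairs had r = 0.60, 0.80 and 0.53. All points come from the same 12 arrays, and the 3 genes were all chosen for their response to sugars there, so these figures are descriptions. Among probe sets with 1 annotated gene, those with values most like *UPL3* included AT5G66420 (r = 0.96), AT1G04810, AT2G07360 and AT3G18190 (each r = 0.95), none of them in Dataset S1. AT5G66420 differed from Xyl by −0.05 with Fru, −0.23 with Glc and −0.22 with Suc. The 5 probe sets most like *UPL5* were AT5G20200 (r = 0.97), *ADR1-L3* (r = 0.96), AT4G39420, AT1G33700 and *CSI1* (each r = 0.95). *ADR1-L3* belongs to a family of immune receptor helpers, and *CSI1* encodes a protein that links cellulose synthase to microtubules.

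The probe set most like AT5G22920 belonged to *BZO2H3* (AT5G28770), the gene of the transcription factor bZIP63 and itself an entry of Dataset S1, at r = 0.97. *BZO2H3* differed from Xyl by −0.70 with Fru, −0.81 with Glc and −0.72 with Suc. Next came AT2G36320 and AT2G16365 (each r = 0.94), AT5G61970 (r = 0.93) and AT1G80000 (r = 0.92). On values as deposited, *BZO2H3* again came first for AT5G22920 (r = 0.94), before AT5G01210 (r = 0.92) and *NAC047* (r = 0.91). For *UPL3* the leading probe sets then included AT5G66420 (r = 0.94) and AT1G02080 (r = 0.89). None of the 5 named for *UPL5* stayed among its leading 3, which were AT3G51120, AT1G71410 and *CYP71B34* (each r = 0.93).

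Of the 7 HECT ligase genes of *A. thaliana*, 4 could be given a probe set, 3 probe sets in all. The platform annotation named none of these, and they were found only through Dataset S1, so their presence in it is no result. Besides *UPL3* and *UPL5*, this was the probe set shared by *UPL1* (AT1G55860) and *UPL2* (AT1G70320), which cannot be told apart on the array. The *UPL1* and *UPL2* probe set had log2 values of 7.40, 7.48 and 7.42 with Fru, 7.20, 7.45 and 7.44 with Glc, 7.15, 7.51 and 7.20 with Suc and 7.77, 8.06 and 7.74 with Xyl. It differed from Xyl by −0.42 with Fru, −0.49 with Glc and −0.57 with Suc (standard error 0.13), and no sugar array reached the lowest Xyl array. With Fru, where *UPL3* was −0.15 and overlapped with Xyl, this probe set did not overlap. Non-overlap downwards was found for 2.63%, 2.59% and 3.26% of all probe sets with Fru, Glc and Suc. Dataset S1 lists the shared probe set under all 3 sugars and *UPL3* under Suc and Glc. The Fru contrast itself thus set the 2 probe sets apart, and nothing is read from their difference. *UPL4*, *UPL6* and *UPL7* were not analysed here.

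Of the 7 CHY-type RING genes, 6 had a probe set, AT5G22920 among them. *BTS* (AT3G18290), an E3 ligase known from the iron deficiency response and listed in Dataset S1 under Glc, differed from Xyl by −0.43 with Fru, −0.71 with Glc and −0.39 with Suc (standard error 0.21). The 5 other probe sets of this family, of AT5G25560, AT3G62970, AT1G18910 and 2 of AT1G74770, lay between −0.35 and 0.13 over the 3 sugars. None of them passed the threshold with any sugar, against 0.0835% of all probe sets with Fru, 0.044% with Glc and 0.0659% with Suc. AT5G25560 had the lowest differences of these, −0.26 with Fru and −0.35 with Glc, with a standard error of 0.38. The probe sets of AT1G18910 and AT1G74770 had log2 values between 2.36 and 3.10, where array medians were 4.70 to 4.84. At such low signal a response could have gone unseen. All 5 lie outside Dataset S1, whose entries were selected at that threshold on these contrasts.

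Listed genes of the rest of the ubiquitin system gave a partial background for the 3 genes. Of 112 listed genes of E1, E2, E3, proteasome, ubiquitin and related functions, 34 could be given a probe set, on 32 probe sets. Of these, 9 were named only through Dataset S1, which holds 1.27% of all probe sets, so that count says nothing of how often ubiquitin genes are in it. Among the other 23, named by the platform annotation, none passed the threshold of 0.002 in either direction with any sugar, with or without the replicate number in the fit, while in the fit with that number 1.09%, 1.24% and 1.06% of all probe sets passed for Fru, Glc and Suc. At an unadjusted p under 0.05 in limma, none of the 23 passed without the replicate number, against 2.57%, 2.11% and 2.04% of all probe sets for Fru, Glc and Suc. With it, 2, 4 and 2 of the 23 passed, against 11.8%, 11.8% and 10.7% of all probe sets, and the lowest adjusted p was 0.307. For Fru, Glc and Suc their median differences from Xyl were −0.06, −0.08 and −0.02, and 18, 15 and 13 of the 23 were below zero, while the medians of all 22746 probe sets were within 0.01 of zero. The 10 probe sets of listed E2 enzymes had medians of −0.06, −0.11 and 0.04. The 5 found for the 31 listed proteasome genes had −0.06, −0.12 and −0.05. *WRKY53*, whose protein is the known target of UPL5, differed by −0.03 with Fru, 0.13 with Glc and 0.09 with Suc (standard error 0.19) and did not pass. Its log2 values lay between 3.17 and 4.03, below the array medians of 4.70 to 4.84, so a response could have gone unseen. The arrays measure RNA and do not show the level of WRKY53 protein.

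Of the ubiquitin genes in Dataset S1, *UBA1*, which encodes the E1 enzyme that starts the relay, had −0.22 with Fru, −0.27 with Glc and −0.35 with Suc. *PRT6*, the ligase of the N-end rule pathway and the other ubiquitin entry listed with *UPL3* under Suc and Glc, had −0.28, −0.41 and −0.48. *RKP*, a RING ligase for the cell cycle inhibitor KRP1, had −0.28, −0.03 and −0.40, and *DCAF1*, a part of CUL4 ligases, had −0.17, −0.25 and −0.39. These genes were selected on the same arrays as the 3 described, so their direction is no independent evidence.

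Taking Dataset S1 by its descriptions, 18 entries besides the 3 genes name ubiquitin, an E3 ligase, a RING finger or an F-box. Of these, 15 were lower than with Xyl with all 3 sugars, against 151 of the 269 remaining entries. Their median differences were −0.30 with Fru, −0.26 with Glc and −0.39 with Suc, against −0.18, −0.18 and −0.20 for the remaining entries. All these entries were selected on the same contrasts, so nothing is read from these counts and medians. The F-box gene AT3G59940, described as a Kelch repeat protein of putative protein degradation, had the lowest value among the 18 entries, −0.89 with Suc (standard error 0.22), with −0.54 for Glc and −0.31 for Fru. With Suc, AT5G22920 (−0.83) came next to it, and with Fru and Glc AT5G22920 was lower than each of the 18. Higher than with Xyl with every sugar were 2 F-box entries, AT3G12350 and AT2G40910, and the RING entry AT2G15580. The descriptions of AT1G32810, AT5G16680 and AT5G23110 name RNA processing or transcription beside a RING finger, so not every entry is a ligase.

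**Figure D4:**
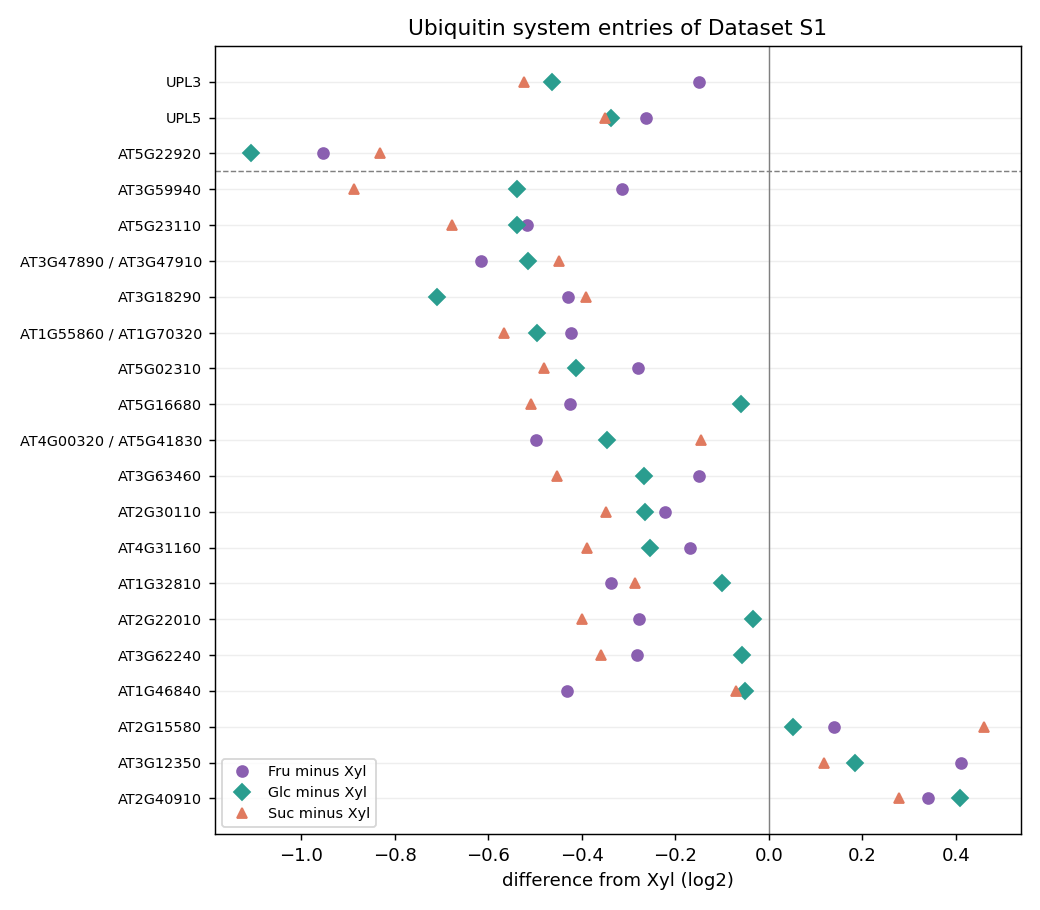
Difference from Xyl (x axis, log2) with Fru, Glc and Suc for *UPL3*, *UPL5* and AT5G22920, above the dashed line, and for the 18 other ubiquitin system entries of Dataset S1 below it, ordered by their mean difference (y axis, gene identifiers). Of the 18 entries, which were selected on these contrasts, 15 lie below zero with all 3 sugars and 3 lie above it.

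Gene length moved with the sugar differences on these arrays, and *UPL3* is a long gene. Its 9078 bp in TAIR10.1 exceed those of 99.34% of probe sets with a known gene length, while *UPL5* has 3928 bp (86.76%) and AT5G22920 2418 bp (59.4%). The 1358 probe sets in the longest 10% had a median difference from Xyl of −0.08 with Fru, −0.08 with Glc and −0.10 with Suc, and 66.05%, 67.38% and 71.94% of them were below zero. The 13566 probe sets with a known gene length had medians of 0.010, 0.016 and 0.010. Over all probe sets, with or without a known length, 49.54%, 48.29% and 49.95% were below zero with Fru, Glc and Suc. The part of gene length in the lower *UPL3* values with Glc and Suc was not tested.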

How the data were processed

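The authors deposited log2 RMA values for 22810 probe sets on each array, made by background correction, quantile normalization and probe summary. Affymetrix Expression Console, RMA and limma are the tools in the submitters' notes, with versions not given in the sources used here. Comparisons of the authors' own were deposited too (log2 fold changes, p-values and log odds) and were not used. No value column was left unassigned.

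The 64 control probe sets were left out. limma 3.58.1 (R 4.3.3) was fitted to the other 22746 over the 4 sugars without a block (8 residual degrees of freedom). Calls used an unadjusted p under 0.002, the threshold of the methods, with Benjamini-Hochberg adjusted p over all probe sets beside it. Intervals are 95% confidence intervals of this fit without a block, unless the block is named. Replicate numbers paired the samples: deviations from group means correlated in 18 of 18 same-numbered pairs (r from 0.772 to 0.938), and culture was split over flasks before treatment, per the methods. The fit was tested on simulated data.

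Of the probe sets, 13513 had 1 gene in the platform annotation, 503 several and 8794 none, and all 290 entries of Dataset S1 were matched by their ratios. Gene lengths and chromosomes come from RefSeq's TAIR10.1 table. The array files name no build, so no coordinates are given. Genes named are the 3 members, listed HECT and CHY-type genes, entries of Dataset S1, listed genes past the threshold, and the 5 and 3 probe sets most correlated with each member with and without subtraction of replicate means, of which 1 for *UPL3* is not reported here. *WRKY53*, AT3G59940, the 3 higher entries and the 3 described by RNA processing or transcription were chosen after their values were seen. The members and lists were chosen with earlier results of these data known. Alternatives were a replicate block, fits of 6 arrays, Student's t-test, a trended robust variance, median centring, linear values, medians of within-replicate differences, a filter on mean log2 values of 5 or less, and each array left out. A random block and leaving out replicate 3 were chosen after seeing the data. Arrays give no read depth, and 3 arrays per sugar limit the precision.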

Additional observations from a re-analysis of the deposited data

How the results depend on the processing

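All 9 differences from Xyl of *UPL3*, *UPL5* and AT5G22920 kept their direction under every alternative run, and 7 of them stayed within 1.5 times their value when 1 array was left out. The exceptions were *UPL5* with Fru, at −0.17 without Fru replicate 1 and −0.40 without Fru replicate 3, and *UPL3* with Fru, at −0.10 without Xyl replicate 2 and −0.10 after median centring. These contrasts chose the genes, so the kept direction is no independent evidence. The replicate block cannot change these differences, since each replicate number has 1 array per sugar. The 4 tests between sugars stayed short of the threshold, and the list counts stayed at 0. These counts cover only probe sets outside Dataset S1, which was selected at that threshold, so nothing is read from them. With the replicate block, AT5G22920 had an adjusted p = 0.779 for Suc minus Glc (0.28), adjusted p = 0.831 for Suc minus Fru (0.12) and adjusted p = 0.824 for Glc minus Fru (−0.15) in limma, and *UPL3* had an adjusted p = 0.943 for Suc minus Glc (−0.06). The block changed no call in the 4 tests between sugars. For the differences from Xyl of the 3 genes no calls are given, since those contrasts chose the genes. Over all probe sets the block raised the number past 0.002 against Xyl to 249, 283 and 242 for Fru, Glc and Suc. Without it 19, 10 and 15 passed. For Suc minus Glc, Suc minus Fru and Glc minus Fru the block gave 145, 133 and 100, against 13, 1 and 5. At an adjusted p under 0.05, 1 probe set passed for Suc minus Glc with the block, against 0 without it.

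Leaving out 1 array turned 3 of the differences between sugars. Suc minus Glc of *UPL3* ranged between −0.20 and 0.0272, being 0.0034 without Glc replicate 2 and 0.0272 without Suc replicate 1. For AT5G22920, Suc minus Fru ranged between −0.0547 (without Fru replicate 2) and 0.28, Glc minus Fru between −0.33 and 0.0687 (without Glc replicate 1), and Suc minus Glc between 0.05 and 0.44. For replicate 3 against replicates 1 and 2, the ranges were 0.33 to 0.55 for AT5G22920 and 0.17 to 0.29 for *UPL5*. For *UPL3* it lay between −0.18 and −0.04, and was −0.02 after median centring. Median centring took these differences past the threshold of 0.002, to 0.51 (adjusted p = 0.00483) for AT5G22920 and 0.30 (adjusted p = 0.00337) for *UPL5* in limma, and so did leaving out Fru replicate 1 for AT5G22920 (0.55, adjusted p = 0.000544). The cause was not tested. With the replicate block, the interval of Suc minus Glc was −0.12 to 0.67 for AT5G22920 and −0.31 to 0.19 for *UPL3*. For AT5G22920 it was −0.27 to 0.51 for Suc minus Fru and −0.54 to 0.24 for Glc minus Fru. These are narrower than the intervals without the block. With 3 arrays per sugar, differences between sugars inside these narrower intervals could not be resolved in either fit.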
